A study of Rattus norvegicus with 4 samples.

Results

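Caspases 1, 2, 6, 8, 9 and 12 and the death receptors Fas and Tnfrsf1a were followed through 4 mammary gland arrays of the rat. The 8 genes were chosen by name, as every probe set whose only gene symbol on the platform was one of theirs, and were covered by 14 of 31042 probe sets, or 8 of 14217 genes. The arrays came from Sprague-Dawley rats (SDR) on day 1 of involution, homozygous and heterozygous Hirosaki hairless rats (HHR) on day 1 of lactation, and SDR on day 1 of lactation, with 1 array in each group. HHR is a hairless mutant strain that arose from Sprague-Dawley rats, and the labels name no allele, age, treatment or number of animals behind an array. With 1 array in a group no replicate error could be given and nothing was tested, so differences are given as fold or log2 values, and counts of genes at least 2-fold apart are set beside the share of all genes past that fold.

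Caspases are proteases that cleave other proteins after aspartate residues and are made as inactive precursors. Death receptors on the cell surface bind ligands of the tumour necrosis factor family and recruit initiator caspases, mitochondria activate another initiator, and initiators switch on executioner caspases that take the cell apart. A further branch, the inflammatory caspases, matures cytokines such as interleukin 1. When milk removal stops, the secretory epithelium of the mammary gland is cleared by cell death and the gland regresses, and studies in mice have linked both death receptors and caspases to that clearance.

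Expression is given as MAS5 signal, a fluorescence intensity for each probe set on a linear scale. Signals under 91.5 (the pooled 40th percentile) were set to that floor before log2 differences were taken, so folds from floor values are written as "at least". Each gene was represented by its brightest probe set. Signals of different probe sets are not set against each other, since probe sets differ in how strongly they bind. The labelled tissue was checked on milk protein genes. Csn2, a casein, had signals of 43743 in SDR involution, 46514 in homozygous HHR, 55859 in heterozygous HHR and 54651 in SDR lactation. The Gapdh control's 3′ signal over its 5′ signal, a ratio that is higher in degraded RNA, was 1.60 in SDR involution, 2.30 in homozygous HHR, 1.93 in heterozygous HHR and lowest, at 1.17, in SDR lactation. For the actin control it was 4.80 in SDR involution, 5.91 in homozygous HHR, 7.86 in heterozygous HHR and 4.60 in SDR lactation. Involution was also set against both HHR lactation arrays, whose ratios lay above those of involution for both controls. The HHR arrays differ from SDR involution in strain as well as in stage, and these cannot be told apart in such comparisons.

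The promoters of Casp1 and Casp12 are shown because these were the members furthest above every lactation array in involution. Each run holds the 250 bases before the annotated start of the gene in the RefSeq table of build GRCr8, on the plus strand. Capitals mark matches to the core of the element bound by interferon response factors (GAAA, any 2 bases, GAAA) and to TTCNNNGAA, the core of STAT sites.
Casp1, chr8:10872580-10872829: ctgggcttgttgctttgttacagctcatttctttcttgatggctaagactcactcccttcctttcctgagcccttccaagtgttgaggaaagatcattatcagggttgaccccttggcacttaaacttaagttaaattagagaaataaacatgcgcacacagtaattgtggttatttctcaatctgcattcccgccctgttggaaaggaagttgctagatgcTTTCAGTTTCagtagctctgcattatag
Casp12, chr8:10926938-10927187: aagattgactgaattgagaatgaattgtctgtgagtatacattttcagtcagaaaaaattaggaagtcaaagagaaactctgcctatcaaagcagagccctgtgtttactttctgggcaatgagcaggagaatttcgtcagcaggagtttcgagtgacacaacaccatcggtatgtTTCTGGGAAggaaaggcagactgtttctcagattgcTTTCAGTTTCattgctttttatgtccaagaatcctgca
In both promoters the capitals TTTCAGTTTC are the interferon-type core read on the opposite strand. The match began 28 bases before the Casp1 start and 38 bases before the Casp12 start. The core was found in 3.41% of 33469 rat promoter windows of the same length, and the 10 bases shared by Casp1 and Casp12 in 0.251% of them. These 10 bases were counted because both windows held them, and the 2 genes lie close together on chromosome 8. The share is thus no measure of how rare their common match is. The other capitals in Casp12, 74 bases before its start, match the STAT core, which 7.67% of all windows held. RefSeq windows were found for 7 of the 8 members. Of the other 5, only that of Fas held any of the 4 motifs searched on both strands, a TGANTCA, the AP-1 core, which 6.34% of all windows held. TATAAA, the last motif, was in none of the 7 and in 12.9% of all windows. The Casp1 and Casp12 windows had 42% and 40.4% G and C bases and 2 and 3 CpG dinucleotides, against a median over all windows of 51.2% and 5, and the other 5 windows lay between 55.6% and 73.2% G and C with 6 to 23 CpG. These matches describe letters and show no binding.

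In SDR involution 3 of the 8 members were at least 2-fold above SDR lactation, Casp12, Casp1 and Casp8, and 0 were as far below it. Among all 11014 measured genes 10.3% were at least 2-fold higher and 8.94% lower, so that 53.4% of the genes past 2-fold were higher, a share that was 41.0% with arrays centred on their medians. Against the HHR lactation arrays as well, 3 members were at least 2-fold higher in involution, Casp8, Casp1 and Casp12 against homozygous HHR (7.76% of genes) and Casp6, Casp1 and Casp12 against heterozygous HHR (11.0% of genes). The median log2 difference of the members from SDR lactation was 0.83, against 0.08 for all measured genes, and 7 of the 8 lay above 0 (6 with median centring, where Casp9 had -0.03), as did 54.3% of all genes. When each gene was averaged over its probe sets, in place of taking the brightest, the members' median was 0.45, 5 lay above 0, Casp9 (-0.17), Casp6 (-0.08) and Casp2 (-0.03) lay below it, and 2 members, Casp1 and Casp12, were at least 2-fold higher. Over the 4 arrays the involution array had the highest signal of 7 members, all except Casp6, and of 36.4% of the 11395 genes above the floor anywhere. In bulk tissue a change in the share of a cell type and a change of RNA within its cells cannot be told apart.

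**Figure D1:**
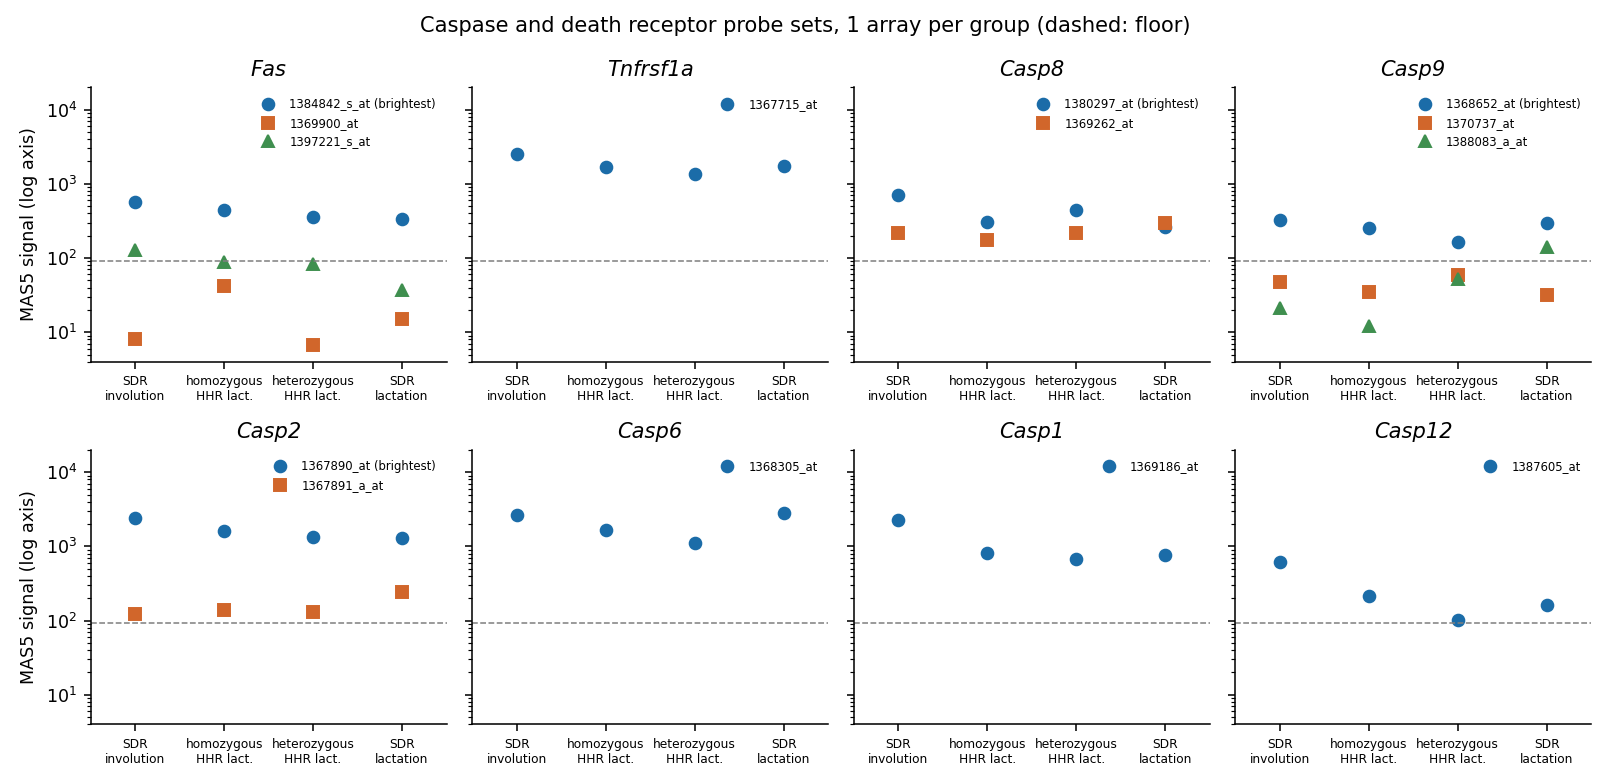
MAS5 signal (log axis) of all 14 probe sets of the 8 genes on the 4 arrays, 1 array per group. Circles are the brightest probe set of a gene, other symbols its further probe sets, and the dashed line the floor of 91.5. Circles are highest in SDR involution for every gene except Casp6, whereas a further probe set each of Casp8 and Casp2 (squares) and of Casp9 (triangles) is highest in SDR lactation.

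Of the death receptors, Fas, the receptor of Fas ligand, had signals of 563 in SDR involution, 443 in homozygous HHR, 360.3 in heterozygous HHR and 337 in SDR lactation on its brightest probe set, 1384842_s_at. Involution was highest, and the fold over SDR lactation was 1.67. Another Fas probe set, 1397221_s_at, was above the floor in involution alone, at 128, and lay at 36.6 to 87.5 in the lactation arrays. The remaining one, 1369900_at, stayed below the floor in all 4 arrays, at 6.7 to 42.2. Both Fas probe sets with signal carry the suffix for probes that may bind transcripts of other genes too, so the Fas level rests on such probes.

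Tnfrsf1a encodes the main receptor of tumour necrosis factor. Its signals were 2539 in SDR involution, 1698 in homozygous HHR, 1358 in heterozygous HHR and 1750 in SDR lactation. Involution was 1.45-fold above SDR lactation, and the 3 lactation arrays lay within 1.29-fold of each other.

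Among the initiators, Casp8, which death receptors activate through the adaptor Fadd, had signals of 699 in SDR involution, 302 in homozygous HHR, 440.2 in heterozygous HHR and 261 in SDR lactation on probe set 1380297_at. Involution was 2.68-fold above SDR lactation, 2.31-fold above homozygous HHR and 1.59-fold above heterozygous HHR on this probe set. The other Casp8 probe set, 1369262_at, went the other way. It had 219 in SDR involution, 173 in homozygous HHR, 219 in heterozygous HHR and 293 in SDR lactation, so that involution was 1.34-fold below SDR lactation. With the mean of both probe sets the log2 difference of Casp8 was 0.50, short of 2-fold, so Casp8 has no settled direction here.

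Casp2, an initiator linked to p53 and to errors of cell division, showed the same split. Probe set 1367890_at had signals of 2423 in SDR involution, 1604 in homozygous HHR, 1319 in heterozygous HHR and 1291 in SDR lactation, a 1.88-fold higher level in involution. Probe set 1367891_a_at had 124 in SDR involution, 138 in homozygous HHR, 132 in heterozygous HHR and 242 in SDR lactation, 1.96-fold lower in involution. The mean of both gave a log2 difference of -0.03.

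Casp9, the initiator that cytochrome c and Apaf1 activate at mitochondria, had signals of 325 in SDR involution, 255 in homozygous HHR, 165 in heterozygous HHR and 301 in SDR lactation on probe set 1368652_at. Involution and SDR lactation were close, 1.08-fold apart, and heterozygous HHR was lowest. Of its further probe sets, 1388083_a_at passed the floor only in SDR lactation, at 140, and 1370737_at in none. The first of these had 21.1 in SDR involution and was there at least 1.53-fold below SDR lactation.

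In involution against SDR lactation, probe sets thus disagreed in direction for 3 of the 4 members with several measured ones, beside 40.6% of the 3080 genes with several measured probe sets. Probe sets 1369262_at of Casp8, 1367891_a_at of Casp2 and 1388083_a_at of Casp9 all had their highest signal in the SDR lactation array, the array with the lowest 3′ to 5′ ratios. Whether RNA quality has a part in this was not tested, and the positions of the probes within the transcripts were not analysed here.

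Casp6, the only executioner among the members and known to cleave lamin A, stood apart from the others. Its signals were 2660 in SDR involution, 1661 in homozygous HHR, 1128 in heterozygous HHR and 2818 in SDR lactation. Both SDR arrays were high and within 1.06-fold of each other, and both HHR arrays were lower. Lmna, the gene of lamin A, named here after its values were seen, had 3279 in SDR involution, 1852 in homozygous HHR, 2102 in heterozygous HHR and 1663 in SDR lactation. Lmna was thus highest in involution but did not share the gap between SDR and HHR lactation.

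The inflammatory members differed most in involution. Casp1, which matures interleukin 1 beta and interleukin 18, had signals of 2246 in SDR involution, 823 in homozygous HHR, 668 in heterozygous HHR and 754 in SDR lactation. Involution stood clear of 3 lactation arrays that lay within 1.23-fold of each other, 2.98-fold above SDR lactation and 2.73-fold above homozygous HHR, the nearest array. Of 11014 genes, 356 were as far or further above SDR lactation.

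Casp12, a relative of the inflammatory caspases that sits at the endoplasmic reticulum in rodents, had signals of 622 in SDR involution, 215 in homozygous HHR, 101 in heterozygous HHR and 160 in SDR lactation. Its involution signal was 3.89-fold above SDR lactation, and only 180 genes were as far or further above. The lactation arrays spread over 2.13-fold, and the heterozygous signal was close to the floor. Casp1 and Casp12 were the 2 members at least 2-fold above all 3 lactation arrays, as were 3.88% of all genes.

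**Figure D2:**
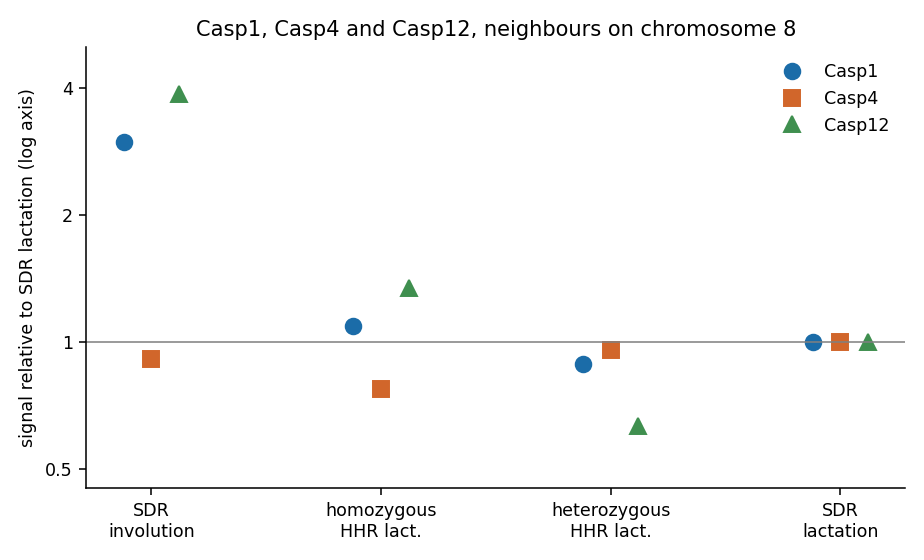
Signal of Casp1, Casp4 and Casp12 relative to the SDR lactation array (log axis), 1 array per group. In SDR involution Casp1 is 2.98-fold and Casp12 3.89-fold above SDR lactation, while Casp4, which lies between them on chromosome 8, is 1.09-fold below it.

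Casp1, Casp4 and Casp12 follow each other on rat chromosome 8 in the RefSeq gene table, with no other protein-coding gene between them. Casp4, which senses bacterial lipopolysaccharide inside cells, is not one of the 8 members. It had signals of 863 in SDR involution, 730.4 in homozygous HHR, 906 in heterozygous HHR and 944 in SDR lactation, so it did not share the higher involution level of its neighbours on the arrays.

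Markers of macrophages and neutrophils, cells that use Casp1, were set beside these values. The summed signal of their 14 markers was 24870 in SDR involution, 17269 in homozygous HHR, 12671 in heterozygous HHR and 21098 in SDR lactation. In involution 2 of 13 measured markers were at least 2-fold above SDR lactation (10.3% of all genes) and 0 below (8.94%), with a median log2 difference of 0.06, and Itgam was at the floor in all 4 arrays. The 2 were the neutrophil genes S100a8 and S100a9, with 2809 and 1409 in involution and both at the floor in SDR lactation. The 10 luminal epithelial markers summed to 120346 in SDR involution, 76457 in homozygous HHR, 61127 in heterozygous HHR and 63939 in SDR lactation. In involution 4 of them were at least 2-fold above SDR lactation and 1 below. The 7 adipocyte markers summed to 9388 in SDR involution, 22427 in homozygous HHR, 19737 in heterozygous HHR and 32006 in SDR lactation, and in involution 0 of 6 measured ones were at least 2-fold above SDR lactation and 2 below, with a median log2 difference of -0.96 and Lep at the floor in all 4 arrays. The 7 endothelial markers summed to 5978 in SDR involution, 6245 in homozygous HHR, 5679 in heterozygous HHR and 9418 in SDR lactation, and in involution 1 was at least 2-fold above SDR lactation and 2 below. The 10 T cell markers, of cells that carry Fas and Fas ligand, summed to 1680 in SDR involution, 1782 in homozygous HHR, 1893 in heterozygous HHR and 2923 in SDR lactation, and Cd8a and Cd28 were at the floor in all 4 arrays. The part of cell composition in the caspase levels was not tested.

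In homozygous HHR 0 of the 8 members differed 2-fold from SDR lactation, where 3.77% of 10866 genes were at least 2-fold higher and 2.72% lower. On the brightest probe sets the member furthest away was Casp6, 1.70-fold lower, followed by Casp12 at 1.34-fold higher and Fas at 1.32-fold higher. The median log2 difference was 0.17, against 0.02 for all genes, with 5 members above 0 and 3 below. When each gene was averaged over its probe sets the direction turned, the members' median being -0.14 with 3 above 0 and 5 below. Among further probe sets, 1367891_a_at of Casp2 was 1.75-fold and 1369262_at of Casp8 1.70-fold lower in homozygous HHR, about as far as Casp6. Casp1 was 1.09-fold higher and Tnfrsf1a 1.03-fold lower.

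In heterozygous HHR Casp6 was the 1 member past 2-fold, 2.50-fold below SDR lactation. Among 10876 genes 4.15% were at least 2-fold lower and 4.58% higher, and 178 were as far or further down as Casp6. On the brightest probe sets Casp9 was 1.82-fold lower, Casp12 1.59-fold lower and Tnfrsf1a 1.29-fold lower. Casp8 was 1.69-fold higher on 1380297_at and 1.34-fold lower on 1369262_at. Casp2 was 1.02-fold higher on 1367890_at and 1.84-fold lower on 1367891_a_at. The members' median was -0.27, against 0.01 for all genes. With each gene averaged over its probe sets it was -0.40, with 2 members above 0 and 6 below. On the brightest probe sets heterozygous HHR had the lowest signal of 5 members over the 4 arrays, as it had for 22.2% of all genes. The summed signals of the macrophage and neutrophil, luminal, endothelial and fibroblast markers were each lowest in the same array. Against SDR lactation their medians on the log2 scale were -0.77 for fibroblasts, -0.71 for endothelium, -0.46 for macrophages and neutrophils and -0.17 for luminal epithelium. The sums of milk secretory and myoepithelial markers were instead highest in heterozygous HHR, at 270543 and 36077, with medians of 0.03 and 0.59. Those of T cells, B and plasma cells and adipocytes were not lowest in it. Of the 13 measured macrophage and neutrophil markers 2 were at least 2-fold below SDR lactation and 2 above, S100a8 and S100a9, with 246 and 278 in heterozygous HHR and both at the floor in SDR lactation. The part of these cells in the caspase values was not tested.

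Homozygous HHR lay above heterozygous HHR for 7 of the 8 members, all except Casp8, beside 50.2% of all genes. The members' median log2 difference was 0.31, against 0.002 for all genes and 0.29 for all cell type markers. By list it was 0.66 for fibroblasts, 0.53 for luminal epithelium, 0.42 for macrophages and neutrophils and 0.25 for endothelium. It was -0.22 for milk secretory cells, -0.20 for T cells, -0.13 for myoepithelium, -0.08 for B and plasma cells and -0.01 for adipocytes. The part of cell composition was not tested. The 1 member past 2-fold was Casp12, 2.13-fold higher, where 3.76% of 10877 genes were at least 2-fold higher and 3.14% lower. Its heterozygous signal of 101 was near the floor, and the call was lost when the floor was raised to 198. Casp9 was 1.54-fold and Casp6 1.47-fold higher in homozygous HHR. Over the lactation arrays Casp6 was thus lowest in heterozygous HHR, and homozygous HHR lay between it and SDR lactation. Both comparisons with SDR use the same SDR lactation array.

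**Figure D3:**
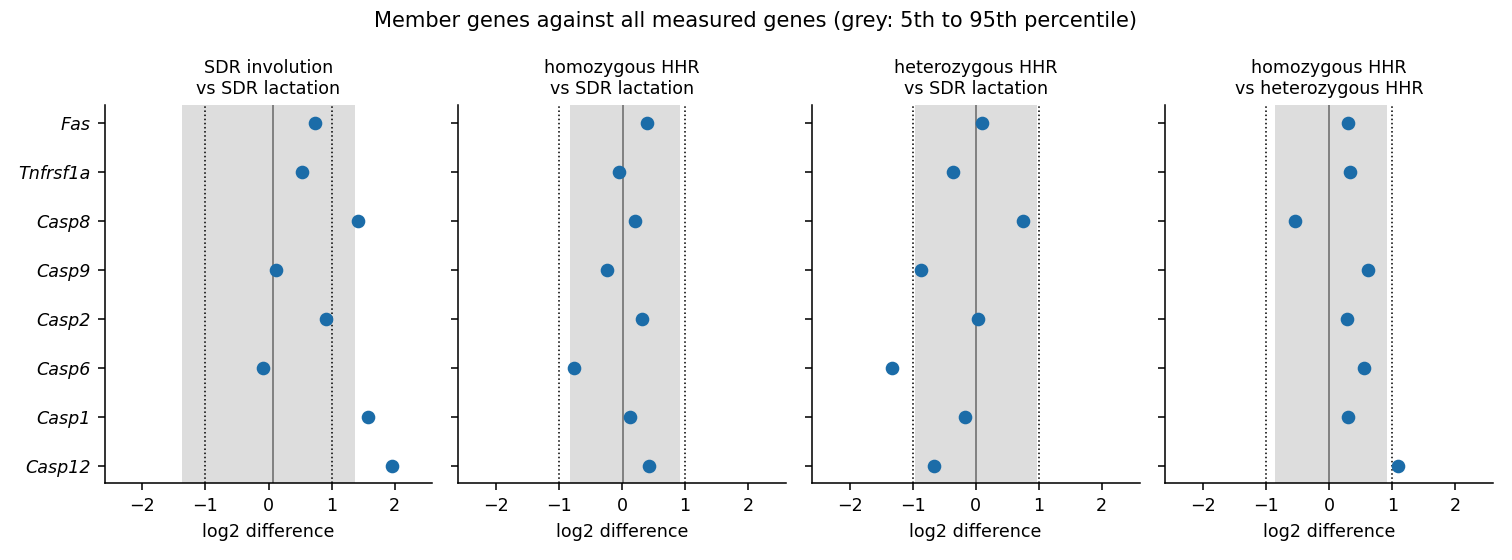
log2 difference of the 8 genes in the 4 comparisons, 1 array per group, on their brightest probe sets. The grey band spans the 5th to 95th percentile of all measured genes, the grey line is their median and dotted lines mark 2-fold. Casp8, Casp1 and Casp12 lie above the band in involution, Casp6 below it in heterozygous HHR and Casp12 above it in homozygous against heterozygous HHR.

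Other genes of the pathway, taken from 8 lists by role, were then counted. Of their 66 entries 53 were on the array, and in involution 8 of 47 measured genes were at least 2-fold above SDR lactation (10.3% of all genes) and 1 below (8.94%). Their median log2 difference was 0.24, against 0.08 for all genes.

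Among ligands, none of 3 measured genes passed 2-fold in involution. Tnfsf10, a ligand of death receptors, had 548 in SDR involution, 289 in homozygous HHR, 181 in heterozygous HHR and 427 in SDR lactation, which made it 2.36-fold lower in heterozygous HHR than in SDR lactation. Faslg, the ligand of Fas, had 154 in involution and 134 in SDR lactation, near the floor. Tnfsf12, which signals through Tnfrsf12a, had 444 in involution and 579 in SDR lactation.

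Of the other receptors 2 of 4 were at least 2-fold higher in involution (10.3% of all genes). Tnfrsf12a had signals of 893 in SDR involution, 1381 in homozygous HHR, 407 in heterozygous HHR and 322 in SDR lactation. It was the 1 receptor of the list at least 2-fold higher in homozygous HHR, 4.29-fold above SDR lactation and 3.39-fold above heterozygous HHR. Tnfrsf11b, a decoy receptor that binds Tnfsf10, was 2.04-fold higher in involution. Tnfrsf21, a death receptor of the nervous and immune systems, had 885 in involution, 2121 in homozygous HHR, 1694 in heterozygous HHR and 1461 in SDR lactation. Tnfrsf25 had 108 in involution against the floor in SDR lactation.

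Of the receptor adaptors and regulators 3 of 11 were at least 2-fold higher in involution (10.3% of all genes) and 0 as far below (8.94%). Ripk3, a kinase of necroptosis, was 2.99-fold higher, with 711 in SDR involution, 272 in homozygous HHR, 334 in heterozygous HHR and 237 in SDR lactation. Adam17, the protease that sheds tumour necrosis factor and Tnfrsf1a from the cell surface, was 2.96-fold higher, with 7230 in SDR involution, 3759 in homozygous HHR, 3303 in heterozygous HHR and 2445 in SDR lactation. Faim, an inhibitor of Fas-driven death, was 2.38-fold higher. Tradd, the adaptor of Tnfrsf1a, had 996 in involution and 569 in SDR lactation, and Ripk1, the kinase recruited with it, had 835 in involution and 1209 in SDR lactation. Traf2, another adaptor of Tnfrsf1a, was 2.26-fold lower in homozygous than in heterozygous HHR.

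Of the activators on the mitochondrial and p53 side 1 of 8 was at least 2-fold higher in involution, close to the 10.3% of all genes. Bid, which Casp8 cleaves to carry the death receptor signal to mitochondria, was 2.12-fold higher in involution, with 1223 in SDR involution, 450 in homozygous HHR, 619 in heterozygous HHR and 576 in SDR lactation. With the mean of its 2 probe sets the log2 difference of Bid was 0.75, short of 2-fold. Diablo, which relieves caspases of their inhibitors, had 1842 in involution and 2393 in SDR lactation, and Aifm1, a mitochondrial flavoprotein, had 1824 in involution and 1278 in SDR lactation.

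Caspase inhibitors went both ways. Birc3, an inhibitor of apoptosis protein that acts at Tnfrsf1a, was 3.92-fold higher in involution, with 1107 in SDR involution, 245 in homozygous HHR, 214 in heterozygous HHR and 282 in SDR lactation. Birc5, survivin, which also serves in cell division, was at the floor in involution, at least 2.31-fold below the 211 of SDR lactation, and was 2.29-fold higher in heterozygous HHR. Xiap, which binds and blocks caspases, had 779 in involution and 757 in SDR lactation, and Birc2 had 722 in involution and 716 in SDR lactation.

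In the inflammasome group 1 of 7 was at least 2-fold higher in involution, close to the 10.3% of all genes. Il1rn, the natural antagonist of the interleukin 1 receptor, had 353 in SDR involution and was at the floor in the other 3 arrays, at least 3.86-fold higher. Of the cytokines that Casp1 matures, Il18 had 394 in SDR involution, 243 in homozygous HHR, 132 in heterozygous HHR and 292 in SDR lactation, and was 2.22-fold lower in heterozygous HHR than in SDR lactation. Il1b, the gene of interleukin 1 beta, named here after its values were seen, had 319 in SDR involution, 121 in homozygous HHR, 176 in heterozygous HHR and 165 in SDR lactation, 1.93-fold higher in involution than in SDR lactation and, unlike Il18, not lower in heterozygous HHR. Pycard, the adaptor that brings Casp1 to the inflammasome, differed little, at 579 in involution, 581 in each HHR array and 649 in SDR lactation. Txnip, a regulator of glucose uptake that can bind Nlrp3, had 16914 in involution and 13089 in SDR lactation.

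None of 9 caspase substrates passed 2-fold in involution. Acin1, a chromatin condensation factor, was 2.06-fold higher in homozygous and 2.33-fold higher in heterozygous HHR than in SDR lactation. Lmnb1, lamin B1, was 2.30-fold higher in heterozygous HHR. Both genes have 3 probe sets. With the mean of these the log2 difference of Acin1 was 0.68 in homozygous and 0.55 in heterozygous HHR and that of Lmnb1 0.72 in heterozygous HHR, all short of 2-fold. Parp1, the DNA repair enzyme that executioners cut, had 2640 in involution and 2091 in SDR lactation, and Gsn, gelsolin, had 5072 in involution and 4482 in SDR lactation.

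In homozygous HHR 2 of 45 measured pathway genes were at least 2-fold above SDR lactation, Tnfrsf12a and Acin1 (3.77% of all genes), and 0 below (2.72%), and the median log2 difference was -0.10. In heterozygous HHR 4 of 46 were at least 2-fold above (4.58% of all genes) and 2 below (4.15%), the median being 0.06. The higher ones were Birc5, Lmnb1, Acin1 and Casp8ap2, a Casp8-associated protein outside the naming rule that was named after its values were seen. With the mean of all probe sets only Birc5, which has 1, stayed past 2-fold among these 4, and Casp8ap2 had a log2 difference of 0.44. Between homozygous and heterozygous HHR 1 of 44 was at least 2-fold higher, Tnfrsf12a (3.76% of all genes), and 2 lower, Traf2 and Lmnb1 (3.14%), of which Lmnb1 had -0.84 with the mean of its probe sets.

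**Figure D4:**
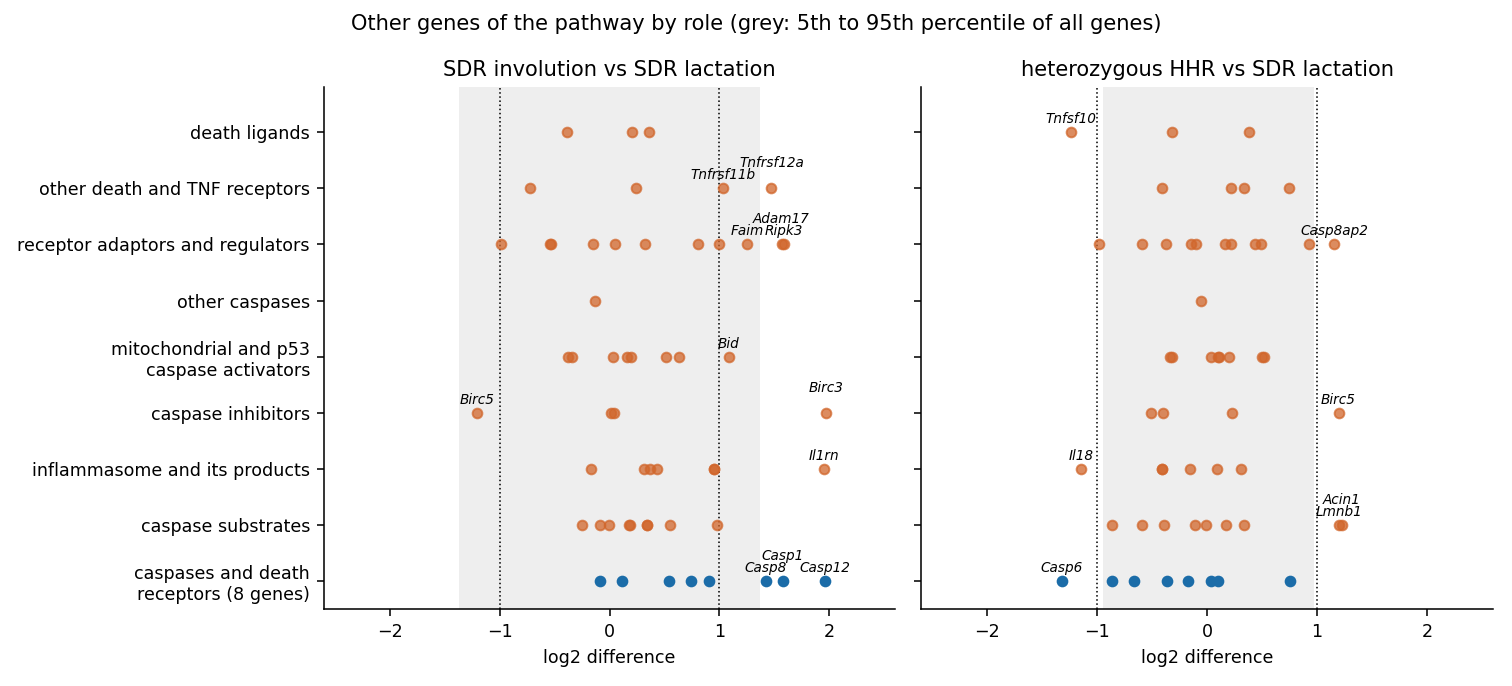
log2 difference of the other pathway genes by role (orange) and of the 8 caspases and death receptors (blue), for SDR involution and for heterozygous HHR, each against SDR lactation, 1 array per group. The grey band spans the 5th to 95th percentile of all genes, dotted lines mark 2-fold and genes past it are named. Birc3, Il1rn and Casp12 lie furthest to the right in involution. Of the named points, those of Il1rn and Birc5 in involution rest on a value at the floor and are bounds. Some unnamed points in both panels also rest on the floor, among them those of Traf1, Endog and Tnfrsf25.

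Genes with the most similar pattern were sought by the Euclidean distance between log2 signals centred over the 4 arrays, among 3265 genes above the floor in all arrays and spanning at least 2-fold. For Casp1 they were Ifi44, an interferon-induced gene, at a distance of 0.05, and Zfp444, at 0.09. Ifi44 had 723 in SDR involution, 275 in homozygous HHR, 215 in heterozygous HHR and 243 in SDR lactation. For Casp12 they were Rnf125 (0.03), the closest match of all those named, and Ltbp1 (0.11). Rnf125 had 3557 in SDR involution, 1236 in homozygous HHR, 566 in heterozygous HHR and 924 in SDR lactation. For Casp8 they were Psmc5 (0.08) and Zpr1 (0.10), and for Casp6 Tp53i11 (0.05) and S100a3 (0.11). The likeness rests on 4 arrays and is a description. A link between Ifi44 and the promoter match of Casp1 was not tested.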

How the data were processed

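RNA of 4 rat mammary gland samples was measured on 1 array each. Per the labels' protocols, total RNA was purified on a column kit and labelled with biotin as cRNA. The values that the authors deposited are linear MAS5 intensities, per the submitters' processing notes. Its version and parameters, detection calls and any centring were not found in the labels or files. The mean without the lowest and highest 2% of values was 500.2 in every array, and the medians were 148 to 164. The number of arrays limits the precision.

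The file held 31099 probe sets, 57 of them controls, which were left out. Platform annotation gave 20826 probe sets 1 symbol, 436 several and 9780 none. All 8 members matched the RefSeq table of GRCr8, used for names, neighbours and promoters. Signals were raised to 91.5 and genes represented by their brightest probe set (Python 3.11.15, pandas 2.3.3). A gene was measured in a comparison if above the floor in at least 1 of its arrays. The steps were tested on simulated data without noise, where all probe sets of bright genes were given the same planted fold. Such data check the arithmetic, and not array noise, disagreeing probe sets or signals near the floor.

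The members, lists and rules were chosen with earlier results of these data known. All members were named. From each pathway list up to 4 genes past 2-fold in any comparison were eligible, by size, and up to 2 more by mean signal. For members spanning 2-fold, the 2 nearest patterns were named. Alternatives were median centring, quantile normalization, other floors, a pseudocount, other rules for probe sets and a 1.5-fold threshold.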

Additional observations from a re-analysis of the deposited data

How the results depend on the processing

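The counts of genes past 2-fold moved by over 1.5 times in these cases. At a 1.5-fold threshold the members counted were 5 in involution, 1 in homozygous HHR and 4 in heterozygous HHR against SDR lactation and 2 in homozygous against heterozygous HHR, and the pathway genes 17, 7, 12 and 11 in the same comparisons, where 41.5%, 22.2%, 26.8% and 23.2% of all genes passed 1.5-fold in either direction. More genes pass a lower threshold by construction. With the floor at the 25th percentile (42.7) pathway genes counted 4 in homozygous HHR against SDR (9.26% of all genes in either direction, 6.50% at the main floor). They counted 5 in homozygous against heterozygous HHR (9.50%, and 6.90% at the main floor). The 1 member of that last comparison, Casp12, gave 0 with the floor at the 55th percentile and with the floor as a pseudocount, where its log2 difference was 0.11 and 0.67, because its heterozygous signal lies near the floor. Pathway genes in heterozygous HHR against SDR counted 3 with the pseudocount (5.38% of all genes in either direction) and 3 when a gene's probe sets were averaged (7.84%). In homozygous HHR against SDR they counted 1 when probe sets were averaged (5.58%). The calls lost under averaging were those of Bid in involution, Acin1 in homozygous HHR, Acin1, Lmnb1 and Casp8ap2 in heterozygous HHR, each against SDR, and Lmnb1 in homozygous against heterozygous HHR, and the cause was not tested. Averaging also moved the members' median in involution to 0.45, turned it to -0.14 in homozygous HHR and gave -0.40 in heterozygous HHR, each against SDR lactation. HHR references in place of SDR lactation were chosen after seeing the data. Of the 53 pathway genes on the array, 14 passed in involution against heterozygous HHR, 11 higher and 3 lower. Against homozygous HHR 10 passed, 8 higher and 2 lower. Against either HHR array 3 members passed, all of them higher. Of all genes 7.76% were at least 2-fold higher in involution against homozygous HHR and 11.0% against heterozygous HHR. The share of all genes as far lower is not given for these references, so the lower pathway genes have no share beside them. Of 219 values of single members under other settings, 214 stayed on their side of 2-fold and within 1.5 times, 5 did not, and 0 called values changed sign. A further 5 had no value because the probe set was at the floor. Among those that moved were Casp8 and Casp2 in involution with the mean of their probe sets. Many of the 214 values that stayed could not move. The floor at the 25th percentile and the rule without shared-probe suffixes left every measured member value as it was. Averaging did the same for members with 1 probe set. The count of 214 is thus no measure of how firm the values are. The median log2 difference of all genes in involution was 0.08 as reported and -0.06 with median centring, and the members' median of 0.83 is to be read against it. Median centring and quantile normalization moved none of the counts of members or pathway genes by over 1.5 times. Dim probe sets, such as those of Fas and Casp9 under the floor, limit what can be seen. No paired analysis was possible because each group had 1 array.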
